A study of Mus musculus with 11 samples.

Results

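The ubiquitin-specific proteases were taken as every row of the deposited fragment table whose mouse symbol is Usp followed by a number, pseudogene names left out. This gave 55 of 30986 rows, all 55 annotated as protein-coding genes. The name rule brought in Usp6nl, which is not a protease: it encodes a GTPase-activating protein for Rab proteins and is named for its likeness to USP6. The table counts RNA fragments recovered with FMRP, the RNA-binding protein lost in fragile X syndrome, from mouse brain at postnatal day 13. Ground frozen tissue was irradiated at 254 nm in 3 doses of 400 mJ, and FMRP was then immunoprecipitated with its attached RNA. All 11 libraries share this treatment: 2 are from cerebellum, 3 from cortex and 5 from hippocampus, and 1 has conflicting region labels and entered no comparison. Titles also carry a numeric code and a letter, s or p, whose meaning is not stated. The counts of hippocampus 1 and 2 agreed within sampling noise, so both were summed to 1 sample (hippocampus 1-2), which leaves 4 hippocampus samples and 9 samples in all. The sources used here do not give strain, genotype, sex or the number of animals behind a library, so the p-values reflect only how far these samples spread, which may be technical. Neither input RNA nor tissue lacking FMRP was analysed here. A count therefore joins the amount of an RNA with how much of it was recovered, and fewer cells of a type cannot be told apart from less RNA per cell.

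Ubiquitin is attached to proteins as a single unit or as chains, which mark them for degradation by the proteasome, for sorting into endosomes or for a change of partners. Ubiquitin-specific proteases are the largest family of enzymes that take it off again, and they cut with a catalytic cysteine. In neurons the family acts on receptor trafficking, on the growth of axons and dendrites and on chromatin, and USP9X is linked to intellectual disability. FMRP binds many long brain mRNAs along their coding sequence and is known as a repressor of their translation.

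The stretch that carries the enzyme activity is shown for the 3 members with the highest mean level and for Usp22 and Usp7, which act on chromatin and in p53 control. Each line holds the cysteine codon in capitals with 18 coding bases on either side, read 5′ to 3′ on the gene's strand from the GENCODE M21 transcripts on build GRCm38. Each run lies within 1 coding exon.
Usp9x: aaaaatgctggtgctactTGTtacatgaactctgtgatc
Usp34: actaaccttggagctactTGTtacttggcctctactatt
Usp24: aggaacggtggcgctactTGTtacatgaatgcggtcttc
Usp22: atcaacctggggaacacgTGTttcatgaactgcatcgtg
Usp7: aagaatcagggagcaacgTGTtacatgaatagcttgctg
The Usp9x run is in exon 31 of 45 (chrX:13145201-13145239, plus strand). That of Usp34 is in exon 43 of 80 (chr11:23426706-23426744, plus strand), and that of Usp24 in exon 43 of 68 (chr4:106406439-106406477, plus strand). The Usp22 run is in exon 5 of 13 (chr11:61162944-61162982, minus strand), and that of Usp7 in exon 7 of 32 (chr16:8707671-8707709, minus strand). A script found these runs by the amino acids they encode: glycine, then asparagine or alanine, then threonine, serine or asparagine, then cysteine, then an aromatic residue. The pattern was present in the coding sequence of 46 of the 55 members, and 9 did not hold it: Usp6nl, Usp10, Usp18, Usp21, Usp39, Usp40, Usp47, Usp53 and Usp54. A missing match says only that these letters were not found, and several of these genes encode active proteases.

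The 55 members held 3852 counts in the 9 samples, and library totals ran from 11898 in cortex 3 to 197382 in cerebellum 2. Members took between 0.32% (hippocampus 3) and 0.778% (cortex 2) of a sample's counts. Levels are given as counts per 1000000 counts of the library (CPM). For cerebellum the summed member level was 5774 ± 191 CPM (SD, n = 2). The cortex mean was 6585 ± 1401 (n = 3) and the hippocampus mean 5651 ± 1895 CPM (n = 4), and the ranges of the regions overlapped. Fragments were unevenly spread over the family: Usp9x held 19.4% and Usp34 15.7% of all member counts, and the 5 highest members held 49%. In the whole table Usp9x ranked 38 and Usp34 ranked 42 by mean CPM, and the next member, Usp24, ranked 367. At the other end 12 members had under 20 counts, and 13 had a count in every sample. Only 11 members (20%) passed the filter on low counts used before testing, against 8.67% of 18908 protein-coding rows. In the shallowest sample, cortex 3, 10 counts equal 840.5 CPM and a count of 0 allows up to 252.1 CPM (3 counts), so its values are coarse. Such limits cover counting error only, since amplified fragments are not independent molecules.

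**Figure D1:**
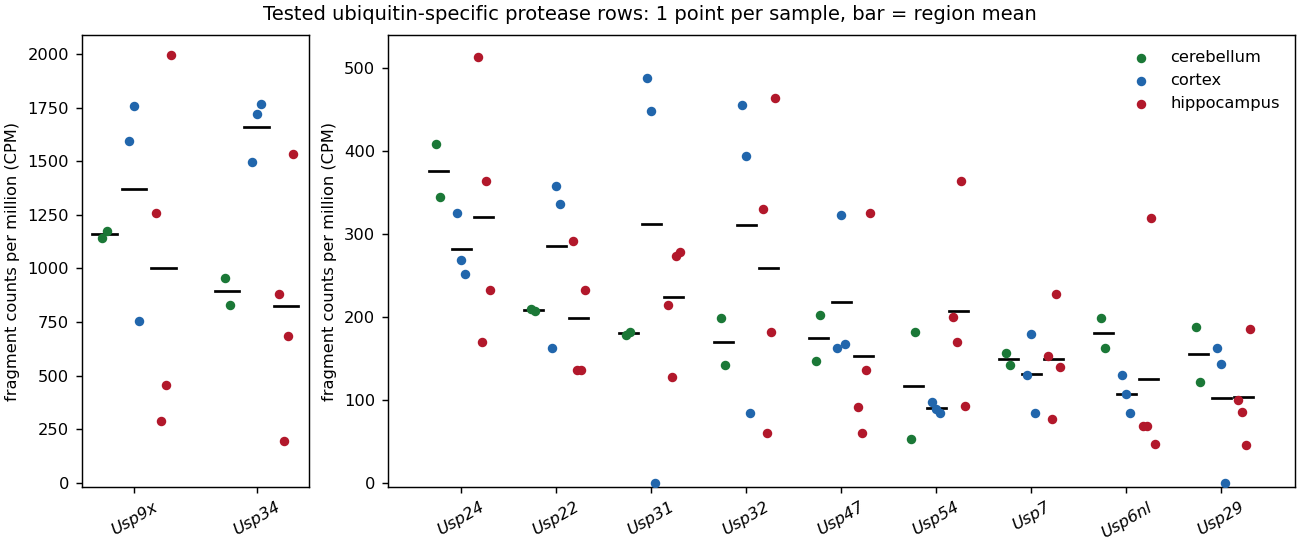
Counts per 1000000 (CPM, linear axis) of the 11 tested members, 1 point per sample, with cerebellum (n = 2), cortex (n = 3) and hippocampus (n = 4) in separate colours and a bar at each region's mean. Usp9x and Usp34 stand on their own axis because their means over 9 samples are 1159 and 1118 CPM, against 320 CPM for Usp24, and for each member the cerebellum points lie within or overlap the range of the 7 forebrain points.

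Usp9x, on the X chromosome (chrX:13071498-13173328, plus strand), encodes a very large protease that stabilises proteins of cell adhesion, endosomal sorting and the synapse. It measured 1142 and 1175 CPM in the cerebellum samples 1 and 2. In cortex 1, 2 and 3 it measured 1595, 1757 and 756 CPM, and in hippocampus 1-2, 3, 4 and 5 it measured 1259, 290, 456 and 1997 CPM. Both cerebellum samples lay inside the forebrain range, and hippocampus held both the lowest and the highest sample. The fitted log2 fold change of cerebellum against forebrain (the mean of cortex and hippocampus, compared within the numeric codes of the sample titles) was 0.48 (SE 0.54, edgeR adjusted p = 0.785). Without hippocampus 3 it was -0.11, without cerebellum 2 it was -0.10, and without cerebellum 1 it rose to 1.55. Cerebellum 2 and hippocampus 3, which share a title code, differed by 1.41 on the TMM-scaled log2 axis. Cerebellum 1 differed from the forebrain samples of its own code, cortex 1 and hippocampus 1-2, by -0.13. Cortex 2 and 3 and hippocampus 4 and 5 share a code that holds no cerebellum sample. They enter the cerebellum estimate only through the difference between cortex and hippocampus. Cortex against hippocampus gave 0.20 (SE 0.46, edgeR adjusted p = 0.999).

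Usp34 (chr11:23306895-23490560, plus strand) encodes another very large protease, known for removing ubiquitin from axin in the Wnt pathway. Its level was 953 and 831 CPM in cerebellum, then 1497, 1721 and 1765 CPM in cortex 1 to 3. Hippocampus 1-2, 3, 4 and 5 gave 882.5, 196, 684 and 1533 CPM. Both cerebellum samples lay below all 3 cortex samples. Cortex was the highest region by mean, 1661 ± 144 CPM against 892 ± 86.6 in cerebellum and 824 ± 554 in hippocampus (SD), yet hippocampus 5 lay above cortex 1, so cortex and hippocampus overlapped. Cortex against hippocampus was 0.65 on the log2 scale (SE 0.45, approximate 95% interval -0.24 to 1.53, edgeR adjusted p = 0.999), and it was positive within each code that holds both regions, 0.45 for cortex 1 and hippocampus 1-2 and 0.64 for cortex 2 and 3 with hippocampus 4 and 5. Cerebellum against forebrain was 0.42 (SE 0.53, edgeR adjusted p = 0.805) with the title code as a block and -0.24 without that block. It was -0.065 without hippocampus 3. A stretch of the opposite strand of the gene's exons belongs to Ahsa2, and the sources used here do not say whether strand was used in counting.

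Usp24 (chr4:106316213-106441322, plus strand) is the third of the giant proteases and has been tied to DNA damage responses. It measured 409 and 344.5 CPM in cerebellum, 325.5, 269 and 252 CPM in cortex, and 514, 170.5, 365 and 232 CPM in hippocampus. The cortex samples lay close together, below both cerebellum samples and inside the hippocampus range. Its fitted differences were 0.37 (SE 0.50) for cerebellum against forebrain and -0.60 (SE 0.53) for cortex against hippocampus, with edgeR adjusted p of 0.828 and 0.999. Usp9y, the Y-linked copy of Usp9x, had 24 counts, spread over 6 of the 9 samples at 17.9 to 76.7 CPM. Usp9y was at 0 counts in cortex 3, hippocampus 4 and hippocampus 5, the shallowest samples, with totals of 11898, 21944 and 21531 counts. A count of 0 there allows up to 252.1, 136.7 and 139.3 CPM (3 counts), above every level just given. These zeros therefore do not show that Usp9y was absent. Summed counts of 4 other Y-linked genes (Ddx3y, Kdm5d, Eif2s3y and Uty) were 0, 2 and 0 in those samples and 7 to 32 in the deeper ones. Reads from stretches that Usp9x and Usp9y share could have been counted to either gene.

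Of the counts of Usp9x and Usp34 together, Usp9x held between 50.5% and 59.6% in 7 of the 9 samples. Its share was 54.5% in cerebellum 1 and 58.6% in cerebellum 2, and 58.8%, 59.6% and 56.6% in hippocampus 1-2, 3 and 5. In cortex 1 and 2 the shares were 51.6% and 50.5%. The low ones were cortex 3 at 30% (9 counts of Usp9x and 21 of Usp34, exact 95% interval 14.7% to 49.4%) and hippocampus 4 at 40% (10 and 15 counts, 21.1% to 61.3%), the samples with the fewest counts of the pair. The interval of cortex 3 lies below the shares of the other 7 samples just given, while that of hippocampus 4 holds them all.

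Usp9x and Usp34 together ran from 485.8 CPM in hippocampus 3 to 3530 CPM in hippocampus 5, a ratio of 7.27. The other 53 members together ran from 2521 CPM in cortex 3 to 4329 CPM in hippocampus 4, a ratio of 1.72. A sum over 53 genes evens out the spread of single genes, so these ratios by themselves do not set the pair apart. Usp32 alone ran from 59.7 CPM in hippocampus 3 to 464 CPM in hippocampus 5, on 7 and 10 counts. The pair held 15.2% of member counts in hippocampus 3 and 20.8% in hippocampus 4, and 34.6% to 50% in the other samples. Hippocampus 3 was the lowest sample for the pair and the second lowest for the other members, at 2710 CPM. Hippocampus 4 was the second lowest for the pair, at 1139 CPM, and the highest for the others. The share of all counts on predicted gene names (symbols starting with Gm or ending in Rik) was 16.1% in hippocampus 3, 15.9% in cortex 3 and 15.5% in hippocampus 4, and between 4.97% and 10.2% in the other 6 samples. Over the 9 samples Spearman's rho between this share and the summed CPM was -0.93 for all members. It was -0.75 for the pair and -0.52 for the other 53 members. The part of these libraries' makeup in the member values was not tested.

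**Figure D2:**
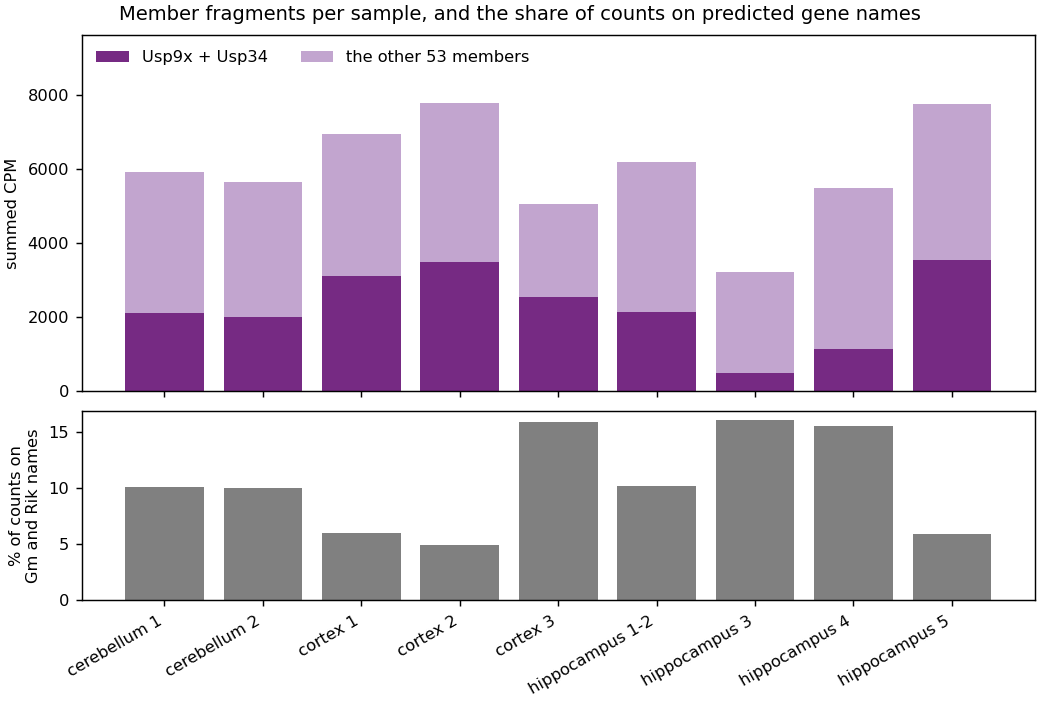
Summed CPM of Usp9x with Usp34 (dark) and of the other 53 members (light) stacked for each of the 9 samples, above the percentage of all counts on predicted gene names. The dark bars span 485.8 to 3530 CPM and the light bars 2521 to 4329 CPM, and hippocampus 3, hippocampus 4 and cortex 3 carry the 3 highest shares of predicted names.

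Among the proteases that act on chromatin, Usp22 was the only one of 10 listed to pass the filter. Usp22 (chr11:61151785-61175055, minus strand) removes ubiquitin from histones as part of the SAGA coactivator complex. It measured 209.5 and 208 CPM in cerebellum, 163, 358.5 and 336 CPM in cortex, and 292, 136, 137 and 232 CPM in hippocampus. Both cerebellum values fell inside the range of either forebrain region. The fitted values were -0.065 (SE 0.55) and -0.006 (SE 0.53) for the comparisons of cerebellum with forebrain and of cortex with hippocampus, the smallest of the tested members in each. Their signs changed with the scaling: on library totals alone they were 0.055 and 0.29. The other 9 chromatin members, among them Usp27x and Usp51, which share the SAGA partners of Usp22, had too few counts to test. Usp27x had 0 counts in cortex 1 and hippocampus 4, and Usp51 was at 0 in 5 of 9 samples. The 10 together came to 590 ± 10.3 CPM in cerebellum, and to 535.5 ± 127 and 498 ± 93.5 CPM in cortex and hippocampus (SD).

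Of 11 members listed for p53 control and DNA repair, Usp7 and Usp47 were tested. Usp7 (chr16:8689595-8792308, minus strand) removes ubiquitin from MDM2 and p53. Its levels were 157 and 142 CPM in cerebellum, 130, 179 and 84.05 CPM in cortex, and 153.5, 76.7, 228 and 139 CPM in hippocampus. Region means were close, 149.5 ± 10.8, 131 ± 47.6 and 149 ± 62.1 CPM in that order (SD), and its log2 differences were 0.40 (SE 0.64) and -0.48 (SE 0.68). Usp47 (chr7:112023504-112111661, plus strand), which acts on the base excision repair polymerase, measured 147 and 203 CPM in cerebellum, 163, 323 and 168 CPM in cortex, and 92.1, 59.7, 137 and 325 CPM in hippocampus. Cortex 2 and hippocampus 5 were its high samples, and the same samples were high for Usp9x. Its log2 differences were 0.69 (SE 0.61) and 0.31 (SE 0.62), and the edgeR adjusted p of both genes lay at 0.687 or above. Untested members of the list include Usp15, which acts on SMAD signalling and measured 32.6 CPM in cortex 1 and 162 CPM in cerebellum 2 at its extremes. Usp4, its close relative, ran from 25.6 CPM in hippocampus 3 to 179 CPM in cortex 2.

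Usp31 and Usp32 showed the same order of region means, with cortex highest and cerebellum lowest. Usp32 (chr11:84984442-85140161, minus strand), a membrane-bound protease of the Golgi and late endosome, had 199 and 142 CPM in cerebellum. In cortex it had 456, 394 and 84.05 CPM, and in hippocampus 330, 59.7, 182 and 464 CPM. Usp31 (chr7:121642021-121707253, minus strand), known from NF-kappaB signalling, had 178 and 182 CPM in cerebellum, 488, 448 and 0 CPM in cortex and 215, 128, 273 and 279 CPM in hippocampus. For both genes cortex 1 and 2 were high and cortex 3, with 1 and 0 counts, was low. The fitted cerebellum differences were -0.50 (SE 0.55) for Usp31 and -0.25 (SE 0.57) for Usp32, and neither passed the test (edgeR adjusted p = 0.772 and 0.927). Without cerebellum 1 the Usp32 value turned to 0.83. Cortex against hippocampus gave 0.42 (SE 0.53) and 0.062 (SE 0.52).

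Usp54 (chr14:20548912-20641063, minus strand), a family member that acts on one type of ubiquitin chain, had the lowest unadjusted p of the 11. It measured 97.65, 89.6 and 84.05 CPM in cortex (3, 5 and 1 counts), and 199.5, 170.5, 365 and 92.9 CPM in hippocampus (26, 20, 8 and 2 counts). Hippocampus was the higher region by mean, 207 ± 114 against 90.4 ± 6.84 CPM (SD), while hippocampus 5 fell inside the cortex range. The log2 difference of cortex against hippocampus was -1.40 (SE 0.71, approximate 95% interval -2.80 to -0.005), with an unadjusted edgeR p of 0.0492 that became 0.999 after adjustment. It was negative within both codes that hold these regions (-1.34 and -1.78), and between -1.82 and -0.56 when 1 sample was left out. Those are 7 of the 9 possible fits, since Usp54 did not pass the filter without hippocampus 1-2 or without hippocampus 3. In cerebellum the samples differed widely, 52.4 and 182 CPM, and the cerebellum difference was -0.37 (SE 0.67). Exons of 1810062O18Rik and 2810402E24Rik overlap those of Usp54 on the opposite strand.

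Usp6nl (chr2:6322667-6446390, plus strand) had the largest fitted difference between cerebellum and forebrain. It had 199 and 162 CPM in cerebellum, 130, 108 and 84.05 CPM in cortex, and 69.1, 68.2, 319 and 46.4 CPM in hippocampus. Cerebellum lay above all 3 cortex samples and 3 of the 4 hippocampus samples, and hippocampus 4, with 7 counts, lay above both cerebellum samples. The log2 fold change was 1.17 (SE 0.67, approximate 95% interval -0.14 to 2.48, edgeR adjusted p = 0.375), and it was between 0.90 and 1.67 in the 7 fits with 1 sample left out that kept the gene, which fell under the filter without hippocampus 1-2 or hippocampus 3. Cortex against hippocampus was -0.51 (SE 0.77) with all samples and 0.67 without hippocampus 4.

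Usp29 (chr7:6730578-6967219, plus strand) is an imprinted gene beside Peg3 that is expressed from the paternal copy in brain. Its levels were 189 and 122 CPM in cerebellum, 163, 143 and 0 CPM in cortex, and 99.8, 85.2, 45.6 and 186 CPM in hippocampus. The regions overlapped, and the log2 differences were 0.42 (SE 0.67) and -0.055 (SE 0.78), with edgeR adjusted p of 0.874 and 0.999. Its exons share bases with Gm27675 on the same strand and with Zim3 on the opposite strand, so its fragments may include theirs.

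No tested member passed the threshold in either comparison. For cerebellum against forebrain 0 of 11 members had an edgeR adjusted p under 0.05 and 0 had an unadjusted p under 0.05, where 7.67% of the 1720 tested rows passed adjusted (67 higher and 65 lower in cerebellum, or 3.9% and 3.78%) and 18% unadjusted. DESeq2 called 0 of the 11 adjusted and 0 unadjusted, with 5.06% and 13.8% of rows called. The median log2 difference was 0.40 over the 11 members, 7 of them positive, and 0.002 over all tested rows. That median belongs to the fit with the block, and single members changed sign in other fits, as Usp34 did with no block (-0.24). Summed over all 55 members, the level was 5774 ± 191 CPM in cerebellum and 6052 ± 1643 CPM in forebrain (SD). Within the codes that hold cerebellum these sums differed by 0.029 and 0.21 on the TMM-scaled log2 axis. For cortex against hippocampus edgeR called 0 of 11 members, and 0% of rows, while Usp54 alone had an unadjusted p under 0.05, as did 3.95% of rows. DESeq2 called 0 members adjusted or unadjusted in that comparison, where 0.0581% and 3.2% of rows were called. Here the members' median was -0.006, with 5 positive, against -0.037 over all rows. The sample ranges of cerebellum and forebrain overlapped for all 11 members, and so did those of cortex and hippocampus, while 13.6% of tested rows had ranges without overlap in the first comparison and 3.9% in the second.

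These values bound the differences only loosely. The approximate 95% intervals of the 11 members reached from -1.69 to 2.48 for cerebellum against forebrain and from -2.80 to 1.53 for cortex against hippocampus. The rows that were called in the first comparison had absolute log2 differences of at least 1.45, with a median of 2.21. A p that missed the threshold therefore does not show equal levels.

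**Figure D3:**
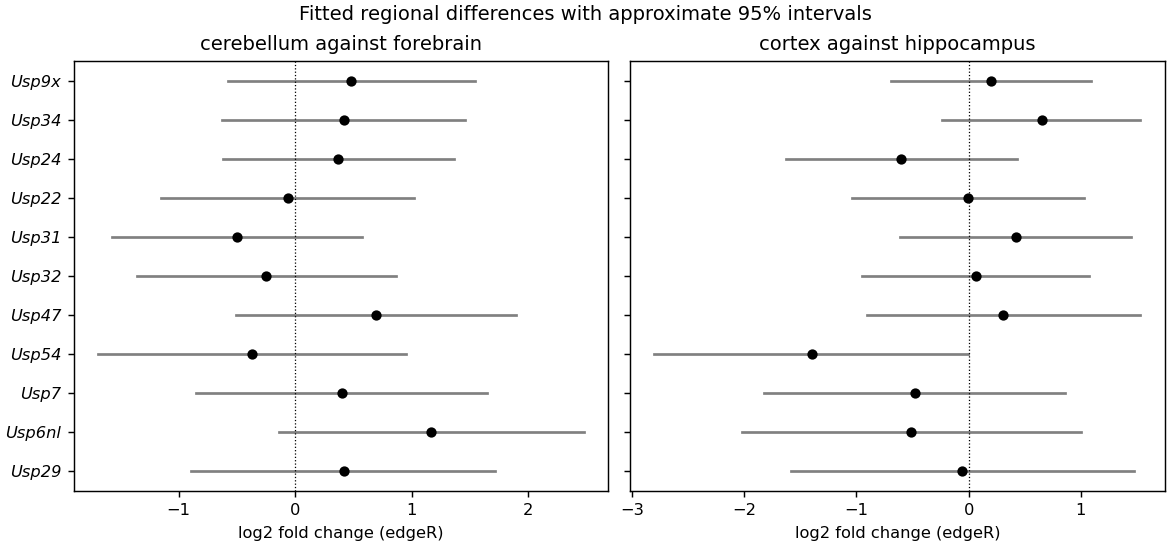
Fitted log2 fold changes (points) of the 11 tested members with approximate 95% intervals (lines), for cerebellum against forebrain on the left and cortex against hippocampus on the right, where positive means higher in the region named first. Intervals cross 0 for each member on the left, and on the right for all but Usp54, whose interval ends at -0.005.

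Of the 44 members under the filter, which held 34.7% of member counts, the 6 with the highest mean CPM were Usp46, Usp15, Usp33, Usp4, Usp26 and Usp19. Usp46, which with its partner WDR48 removes ubiquitin from AMPA-type glutamate receptors, measured 178 and 122 CPM in cerebellum. It had 97.65, 161 and 0 CPM in cortex and 84.4, 76.7, 0 and 232 CPM in hippocampus. Both zeros fell in shallow samples of 11898 and 21944 counts, where a count of 0 still allows 252.1 CPM (cortex 3) and 136.7 CPM (hippocampus 4). Usp33, which acts on the axon guidance receptor ROBO1, reached 195 CPM in cortex 1 and was at 0 in cortex 3. Usp19, anchored in the endoplasmic reticulum, ran from 0 in hippocampus 5 to 168 CPM in cortex 3 on 2 counts. Usp26, an X-linked gene known from testis, had 32 counts in all and was at 0 in cortex 1. The other 38 members had means between 0.947 and 78.5 CPM.

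By role, the endosomal and synaptic group (Usp8, Usp46, Usp12, Usp2, Usp20, Usp33 and Usp10) summed to 509 ± 110, 398 ± 201 and 472 ± 234 CPM (SD) over the samples of cerebellum, cortex and hippocampus. Proteases of the proteasome and of protein quality control (Usp14, Usp19, Usp13, Usp25 and Usp5) summed to 239.5 ± 2.01, 316 ± 26 and 391 ± 126 CPM. The cerebellum and cortex sums rest on 4 to 47 counts per sample, so their small SDs do not measure counting error. Hippocampus samples ran from 221.6 to 510.9 CPM, a range that covers all samples of both other regions. Usp14, which sits on the proteasome itself, had a count in every sample. Its samples ranged from 15.4 to 97.65 CPM. The 3 proteases with mitochondrial roles (Usp30, Usp35 and Usp38) summed to 144 ± 11.2, 100 ± 56.3 and 136 ± 40.1 CPM. None of the members listed in these 3 groups could be tested. Usp9x and Usp32, tested and described above with endosomal roles, were not counted in them. Usp18, which removes the ubiquitin-like ISG15 after interferon, was at 0 in 4 of 9 samples and had at most 45.6 CPM.

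With the filter lowered to a minimum count of 3, a setting added after seeing how few members passed, 39 members were tested and 0 were called by edgeR in either comparison, against 0.424% of 7078 rows for cerebellum. In that comparison 1 of the 39, Usp1, had an unadjusted p under 0.05 (5.76% of rows did). Usp1, which acts on the DNA repair proteins FANCD2 and PCNA, was named after its values were seen. It had 83.8 and 50.7 CPM in cerebellum, 32.6, 17.9 and 0 CPM in cortex and 0, 25.6, 137 and 0 CPM in hippocampus. Cerebellum was above 6 of the 7 forebrain samples, and the exception, hippocampus 4, exceeded both. The log2 value was 2.34 with an unadjusted edgeR p of 0.0362. With no filter edgeR tested all 55 members and called 0, against 0.00324% of 30818 rows. Usp1 again was the member with an unadjusted edgeR p under 0.05 for cerebellum (0.0156), as 1.5% of rows had. For cortex against hippocampus 0 members had an unadjusted p under 0.05 with either of these filters, Usp54 included, where 2.87% and 1.37% of rows did. Usp50 had 3 counts, all in cerebellum, which is too few to compare its ranges.

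Per kilobase of transcript the order changed. Usp9x and Usp34 stayed first, at 97.5 and 91.6 CPM per kb, followed by Usp22 at 51.9, Usp32 at 36.4, Usp47 at 30.9, Usp24 at 30.2 and Usp7 at 30.2 CPM per kb. Usp22 moved up to the third place because its transcript has 4434 bases, against 10594 for Usp24. Usp31, Usp6nl and Usp29, all on longer transcripts than Usp22, came to 23.9, 17.6 and 15.2 CPM per kb, and untested Usp5, an enzyme that recycles free ubiquitin chains, stood beside them at 23.5 CPM per kb. Over the 55 members Spearman's rho between total count and transcript length was 0.71, and that between CPM per kb and coding length was 0.41. These are descriptions across genes measured in the same libraries. Usp15 and Usp9y, on long transcripts as well, had 79 and 24 counts.

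**Figure D4:**
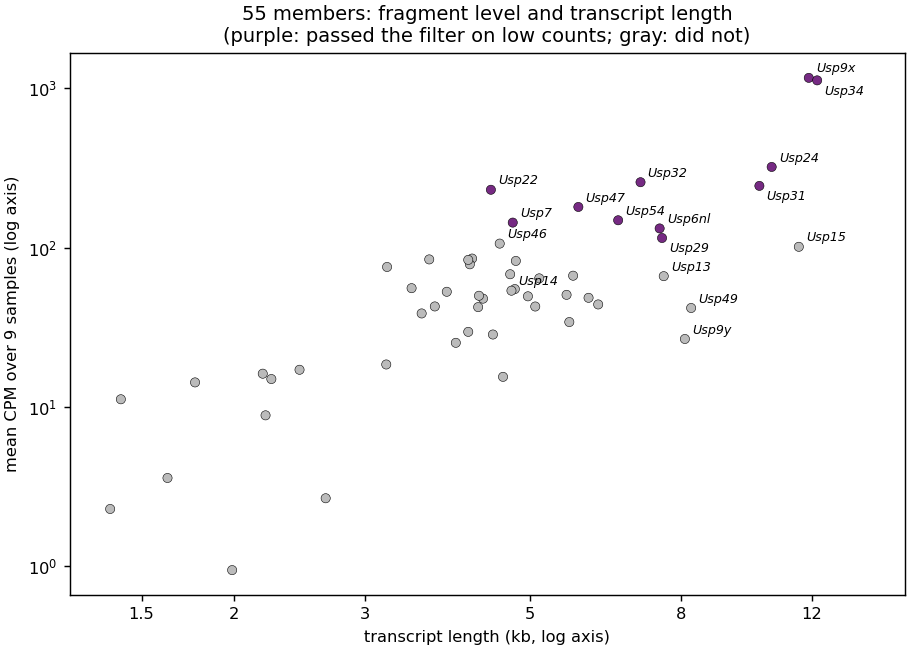
Mean CPM over the 9 samples against transcript length in kilobases for the 55 members, both on log axes, with the 11 tested members in purple and the 44 untested in gray. Usp9x and Usp34 lie at the upper right with means of 1159 and 1118 CPM, and Usp15, of similar length, lies near 101 CPM.

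FMRP-bound RNA has been reported to be rich in short elements, among them AGGA and TGGA, and ACTT and ACTG in DNA letters. Both pairs were counted on the coding strand, overlaps included, in the coding sequences of GENCODE M21. Members held a median of 16.2 AGGA or TGGA matches per kb of coding sequence, against 15.8 over 21740 genes (quartiles 12.35 and 19.4). For ACTT or ACTG the medians were 9.13 and 8.55 per kb. Usp9x and Usp34, the members with the most fragments, had 12.4 and 13.8 AGGA or TGGA matches per kb, both under the median of all genes. Their ACTT or ACTG densities, 11.1 and 11.5 per kb, were above the median of all genes. Among the 55 members rho between CPM per kb and the density was 0.06 for the first pair of motifs and 0.12 for the second. Coding sequences of the members had a median length of 2607 bases against 1179 over all genes. Their median content of G and C was 47.95% against 51.85%. The 3′ untranslated regions had a median of 1188 bases against 732.

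The densest 60-base coding windows of AGGA and TGGA that lie within a single exon are shown for both leading members. They print what the counted letters look like in these genes. Matches are in capitals.
Usp9x: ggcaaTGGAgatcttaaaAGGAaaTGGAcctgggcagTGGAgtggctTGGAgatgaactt
Usp34: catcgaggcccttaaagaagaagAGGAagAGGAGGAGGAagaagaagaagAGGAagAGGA
The Usp9x window is in exon 43 (chrX:13165272-13165331, plus strand, GRCm38) with 5 matches, and 23.3% of genes hold a window of at least as many. The Usp34 window is in exon 15 (chr11:23363964-23364023, plus strand) with 6 matches, and 8.25% of genes hold a window of at least that many. Both shares were counted over joined coding sequences without the limit to a single exon, so they compare unlike windows. A match describes letters and not a binding site, and the table gives no position of fragments within a gene.

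The lists of other deubiquitinase families also hold relatives not known to remove ubiquitin, Prpf8 among them. They held 50 symbols, some of them an older and a newer name of the same gene, and 42 were found in the table. Of these 6 were tested and 0 were called by edgeR in either comparison, where 7.67% and 0% of all tested rows were called, so the count shows nothing particular to these genes. The nearest to the threshold was Fam63b, which trims long ubiquitin chains, with 304 ± 14.5 CPM in cerebellum against 97.2 ± 85.6 and 97.7 ± 29.9 CPM in cortex and hippocampus (SD) and a log2 difference of 1.62 (SE 0.59, edgeR adjusted p = 0.0709). Of 24 listed partners and substrates of the family 3 were tested (Nedd4, Nedd4l and Atxn7l3), 0 of them called. Among 5 genes for the ubiquitin-activating enzyme and its relatives Uba1 alone was tested and was not called, and none of the 4 ubiquitin genes had enough counts. Marker genes of the regions were called in the same fit for cerebellum against forebrain, and none was called for cortex against hippocampus. All 5 tested markers of cerebellar granule cells were higher in cerebellum, where the 11 listed summed to 7089 ± 1027 CPM against 524 ± 250 in cortex and 674 ± 188 in hippocampus. Of 7 tested markers of telencephalic excitatory neurons 4 were lower (Camk2a, Nrgn, Bcl11b and Kcnh3). Itpr1 of 3 Purkinje cell markers, Reln of 3 interneuron markers and Il16 of 4 hippocampal markers were higher in cerebellum, and Slc1a2 and Glul of 5 astrocyte markers were lower. Of 2 oligodendrocyte markers none passed, and no microglial or endothelial marker had enough counts.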

How the data were processed

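FMRP-bound RNA fragments were measured in 11 libraries. The authors deposited a table of whole-number fragment counts per gene symbol, in which all sample columns were used. Bowtie 0.12.7, Picard and the build mm10 are named per the submitters' processing notes. How fragments were counted, on which annotation, and whether strand and duplicates were considered is not given in the sources used here.

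Counts of hippocampus 1 and 2 agreed within sampling noise and were summed: their chi-square was 1.03 per degree of freedom (1873 rows, p = 0.192), against 1.49 to 8.62 in 13 other pairs of libraries from 1 region. A library of 30344 counts whose title names cortex and whose tissue label names hippocampus entered no comparison. Counts were scaled to 1000000 per library (CPM). Over the 9 samples totals ran from 11898 to 197382 counts.

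The test was edgeR 4.0.16 (R 4.3.3), quasi-likelihood, in 1 fit over 9 samples and 1720 rows kept by filterByExpr by region, with TMM factors, region terms and the numeric title code as a block (4 residual degrees of freedom). Benjamini-Hochberg adjustment ran over all 1720 rows with a threshold of 0.05. The SE is the absolute log2 fold change over the square root of F and is approximate. What the codes stand for is not stated, and cortex 2 and 3 and hippocampus 4 and 5 carry a code without a cerebellum sample. Deviations from region means correlated across genes with a median r of 0.132 in 8 pairs of samples of 1 code (-0.0669 to 0.484) and -0.0499 in 18 other pairs. DESeq2 1.42.0, other filters, scalings and sample sets were alternatives. The fit was tested on simulated data.

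Members named are all that passed the filter, the 6 highest of the rest by mean CPM, and of other lists those called or highest. Further members under the filter (Usp1, Usp5, Usp9y, Usp14, Usp18, Usp27x, Usp37, Usp48, Usp50 and Usp51) were named after their values were seen. Members and lists were chosen with earlier results of these data known. Gene positions, transcript lengths and sequences come from GENCODE M21 (GRCm38). Protein sequences were not used here.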

Additional observations from a re-analysis of the deposited data

Results flagged for a closer look

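Usp6nl in hippocampus 4 stood apart from the other 3 hippocampus samples. It measured 319 CPM there (7 counts, exact 95% interval 128.3 to 657.1 CPM from counting error) and 46.4 to 69.1 CPM in the others. The gap to the next sample was 0.917 of the group's range, above Dixon's critical value of 0.829 for 4 samples. Of 20 such tests on hippocampus values this was the only one above it, and chance flags about 1 in 20 groups.

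The library whose title names cortex and whose tissue label names hippocampus was not used in the comparisons, and members were present in it. Their summed level was 5075 CPM (154 counts, 37 of 55 members), inside the range of the 9 samples, 3196 to 7780 CPM. For a single gene a count of 0 in this library allows up to 98.9 CPM (3 counts). Usp9x measured 857 CPM and Usp34 989 CPM, inside the ranges of both forebrain regions for Usp9x and of hippocampus for Usp34. Usp22 measured 362.5 CPM (11 counts, exact 95% interval 181 to 648.5 CPM from counting error). That was above all 9 samples, but cortex 2, at 358.5 CPM, lay inside this interval. Usp15 and Usp48, each at 231 CPM (7 counts), and Usp37 at 132 CPM (4 counts) were also above all 9. How many members or rows would lie above all 9 samples by chance was not tested.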

How the results depend on the processing

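No member was called under any of the 19 alternatives run, in either comparison. Of 372 member values recomputed, 323 kept their direction and 49 changed it. All values are log2 fold changes unless called rows are named, and the cause of a change was not tested.

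Rows called for cerebellum against forebrain were 132, and 54 on library totals alone, 87 by DESeq2, 1 with no filter, 30 with a minimum count of 3, 85 in the libraries whose titles begin with s (s titles), 215 without hippocampus 3, hippocampus 4 and cortex 3, and 2 (without cerebellum 1) to 176 (without cortex 3) with samples left out in turn. Called rows fell to 15 when cortex 1 was left out, to 17 for cerebellum 2 and to 81 for hippocampus 1-2. With no replicate block they were 156. For cortex against hippocampus 0 rows were called, 1 each by DESeq2, over 10 separate libraries and with the library of conflicting labels as cortex (with the block or without), 3 without those 3 samples, and 0 to 1 with samples left out.

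For cerebellum against forebrain with no replicate block Usp34 was -0.24, also with the added library. Without hippocampus 3, hippocampus 4 and cortex 3 Usp9x was -0.13 and Usp34 -0.090. Usp22 was 0.055 on library totals, 0.27 with no filter, 0.45 in s titles and 0.12 with a minimum count of 3, and Usp32 was 0.16 with no filter. With samples left out the ranges were -0.11 to 1.55 for Usp9x, -0.065 to 1.40 for Usp34, -0.55 to 0.17 for Usp22, -0.73 to 0.83 for Usp32 and -1.12 to 0.41 for Usp54.

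For cortex against hippocampus Usp22 was 0.076 with no replicate block, 0.23 with the added library and no block, 0.29 on library totals, 0.039 by DESeq2, 0.29 with no filter and 0.20 with a minimum count of 3. Usp29 was 0.26 on library totals, 0.19 with no filter, 0.14 with a minimum count of 3, 0.24 in s titles and 0.090 without the 3 samples, where Usp9x was -0.040 and Usp6nl 0.78. Usp6nl was 0.46 in s titles, and Usp32 was -0.078 with the added library and no block. With samples left out the ranges were -0.048 to 0.73 for Usp9x, -0.31 to 0.85 for Usp22, -0.16 to 0.40 for Usp32, -0.97 to 0.67 for Usp6nl and -0.35 to 0.37 for Usp29.

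Leaving out TMM factors moved the median of all rows by 0.12 in the first comparison and 0.24 in the second. Low counts kept 44 of 55 members from testing. Ranges with samples left out cover only fits in which the member passed the filter: 7 of 9 for Usp54 and Usp6nl and 5 of 9 for Usp29.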
